A study of Mus musculus with 16 samples.

Results

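The potassium channel genes of a mouse beta-cell line were followed on 16 arrays. They comprise every gene whose platform symbol begins with Kcn, together with Abcc8 and Abcc9, which encode the sulphonylurea receptor subunits of ATP-sensitive potassium channels. The rule for members uses only the symbol. The array named 86 such genes out of 18193 genes with at least 1 single-symbol probe set, and 172 probe sets measured them. The probe set with the highest mean stood for its gene. A gene under log2 4 (an intensity of 16) on 15 or more arrays was treated as not expressed, a label for a signal near the floor of the method and not a proof of silence. By that rule 24 of the 86 genes were expressed and 62 were not, and tests were made on the 24.

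R7T1 cells, the line used throughout, received both agents together, the compound listed as BayK8644(2a) alone, Exendin-4 alone, or the DMSO vehicle. Each treatment was sampled at 0.5, 2, 6 and 24 h on 1 array, so there were 4 arrays per treatment and no replicate of any treatment and time. The compound was taken to be BayK8644, a dihydropyridine activator of L-type calcium channels. Exendin-4 activates the GLP-1 receptor. The labels give neither doses, genotype nor growth state, and a single line stands for beta cells here. Whether separate cultures lie behind the arrays is not stated. With no replicates, the spread behind the p-values is what each model leaves unexplained, part of which may be technical. In comparisons over the 4 times it includes effects that change with time. In comparisons at single times it includes any departure of the agents from adding up.

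Beta cells couple glucose to insulin release through their membrane potential. ATP made from glucose closes the ATP-sensitive channel, an octamer of Kcnj11 and Abcc8 products, the membrane depolarises, and L-type calcium channels open. Voltage-gated and calcium-activated potassium channels then repolarise the cell, and accessory subunits such as the KChIP proteins (Kcnip genes) set how the pore-forming subunits traffic and gate.

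Beta-cell markers were well above the floor on every array, as for Ins2 (15.60 to 15.79 on the log2 scale) and Pdx1 (13.22 to 13.43), and all 9 measured markers of that cell type were expressed. All 4 measured acinar and duct markers stayed below log2 4. Of 10 mesenchymal, endothelial and leukocyte markers only Vim reached that level on more than 1 array, and of 5 neuronal and glial markers Rbfox3 and Mbp did. Median intensity per array lay between 10.5 and 11.6. For Actb, the 3' control probe set exceeded the 5' one by 0.59 to 0.80 (log2).

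The expressed set was uneven across channel families. Of 15 inward rectifier genes only Kcnj11, the pore of the ATP-sensitive channel, was expressed, and of 12 two-pore genes only Kcnk16, the TALK-1 leak channel of beta cells. Of 31 voltage-gated pore and modifier genes 7 were expressed. These were Kcnc1 and Kcnc2 (fast Kv3 channels), Kcnd1 and Kcnd2 (A-type Kv4 channels), Kcnf1 (a silent subunit that modifies other Kv channels), Kcnh1 (the EAG1 channel) and Kcnh2 (the ERG1 channel). Of 8 genes for channels opened by calcium, sodium or pH, 5 were expressed: the small-conductance genes Kcnn1 and Kcnn2, the large-conductance gene Kcnma1, the sodium-activated gene Kcnt2 and the Slo3 gene Kcnu1. Accessory subunits made up 9 of the 24, out of 17 on the array. They were Abcc8, the Kv beta genes Kcnab2 and Kcnab3, the KChIP genes Kcnip1, Kcnip2, Kcnip3 and Kcnip4, and the large-conductance beta genes Kcnmb2 and Kcnmb4. The remaining expressed member, Kcnq1ot1, is a long noncoding RNA of the Kcnq1 locus, and 1 of 3 noncoding members passed.

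The 62 genes not expressed stayed below log2 4 on every array, and 51 of them below log2 3. Their values ran between 0.99 and 3.90. Among inward rectifiers they were Kcnj1, Kcnj2, Kcnj3, Kcnj4, Kcnj5, Kcnj6, Kcnj8, Kcnj9, Kcnj10, Kcnj12, Kcnj13, Kcnj14, Kcnj15 and Kcnj16. Among two-pore genes they were Kcnk1, Kcnk2, Kcnk3, Kcnk4, Kcnk5, Kcnk6, Kcnk7, Kcnk10, Kcnk12, Kcnk13 and Kcnk15. Among voltage-gated genes they were Kcna1, Kcna2, Kcna3, Kcna4, Kcna5, Kcna6, Kcna7, Kcnc4, Kcnd3, Kcng1, Kcng2, Kcng4, Kcnh3, Kcnh5, Kcnh7, Kcnh8, Kcnq1, Kcnq3, Kcnq5, Kcns1, Kcns2, Kcns3, Kcnv1 and Kcnv2. Kcnn3, Kcnn4 and Kcnt1 were also below the threshold, as were the accessory genes Abcc9, Kcnab1, Kcne1, Kcne1l, Kcne2, Kcne3, Kcne4 and Kcnmb1 and the noncoding Kcnmb4os1 and Kcnmb4os2. No other probe set of these 62 genes reached log2 4 on 2 arrays.

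Members just inside the threshold were Kcnip2, at or above log2 4 on 2 arrays, and Kcnma1 and Kcnh1, each on 5 arrays. Just outside it lay Kcnj6 (highest value 3.90), Kcnc4 (3.89) and Kcnj3 (3.80). Kcnh1 and Kcnip2 passed only through arrays that held BayK8644, so a difference in them was built into their passing. Except where the processing was varied, counts of called members that include either gene are therefore also given without them.

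**Figure D1:**
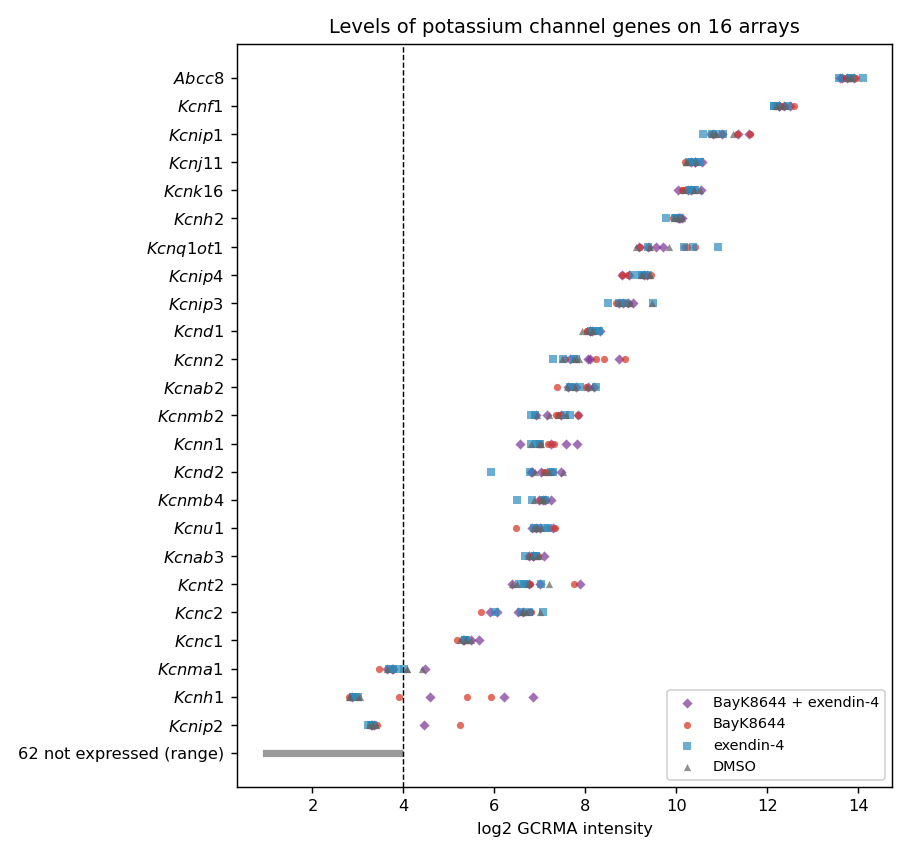
Log2 GCRMA intensity (x axis) of the 24 expressed potassium channel genes (rows, sorted by mean), 1 point per array, coloured by treatment; the dashed line marks log2 4 and the grey bar spans the 62 genes not expressed (0.99 to 3.90). Probe sets differ in affinity, so the order of rows is not an order of RNA amounts. Most genes form a tight column, while Kcnh1 spreads between 2.81 and 6.86 and its high points are arrays with BayK8644.

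BayK8644 raised 4 potassium channel genes at 24 h: Kcnh1, Kcnip2, Kcnn2 and Kcnip1. Kcnh1 and Kcnip2 came up from the floor, while Kcnn2 and Kcnip1 were already expressed in vehicle. No member fell. The comparison set the 2 arrays with BayK8644 against the 2 without it at each time, assumed additive agents, and asked which channels respond when calcium entry is prolonged. At 0.5, 2, 6 and 24 h 0, 1, 3 and 4 of the 24 members rose, and 0 fell. Over all 10609 genes tested the percentage called in either direction was 0.217% at 0.5 h, 1.63% at 2 h, 2.47% at 6 h and 5.1% at 24 h. The share called as higher was 0.217%, 1.15%, 1.7% and 2.98% at those times, and as lower 0%, 0.481%, 0.773% and 2.12%. Without Kcnh1 and Kcnip2 the members raised numbered 2 of 22 at 6 h and 2 of 22 at 24 h. At 0.5 h 0 members had even an unadjusted p under 0.05 (limma), where 218 of the 10609 genes did. The cells were measured in bulk, so more cells of a kind and more RNA per cell cannot be told apart.

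Kcnh1 encodes a voltage-gated channel that is mostly neuronal in normal tissue and is known for ectopic expression in tumours. At 0.5 h it stood at 2.87 with both agents and 2.81 with BayK8644, against 2.96 with Exendin-4 and 2.83 in DMSO. At 2 h it had 4.57 with both agents and 3.89 with BayK8644, against 2.89 with Exendin-4 and 3.04 in DMSO. At 6 h the values were 6.20 and 5.40 with both agents and BayK8644, against 2.89 and 2.81 with Exendin-4 and DMSO. At 24 h Kcnh1 reached 6.86 with both agents and 5.93 with BayK8644, against 2.99 with Exendin-4 and 2.99 in DMSO. Arrays without BayK8644 thus stayed near 3 throughout, and from 2 h on the arrays with it lay above all of them.

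The difference in Kcnh1 was 1.27 ± 0.27 on the log2 scale at 2 h (SE, adjusted p = 0.0567), which did not pass. It was 2.95 ± 0.27 at 6 h (adjusted p = 0.000902) and 3.40 ± 0.27 at 24 h (adjusted p = 0.000286). Kcnh1 passed the filter only through arrays with BayK8644. A difference was thus built into its being tested, and these p-values are no independent support for it. Since the lower side lay under log2 4 on both arrays, the level with BayK8644 was at least 3.48-fold higher at 6 h and at least 5.24-fold higher at 24 h, taking log2 4 for each lower array. The effect at 24 h exceeded that at 0.5 h by 3.45 ± 0.38 (adjusted p = 0.005), and that test was lost without any 1 array of 0.5 h (adjusted p up to 0.0887). In that comparison of effects 3 of 24 members were called, all higher, where 0.98% of all genes were, 0.566% as higher and 0.415% as lower. Without Kcnh1 and Kcnip2 it was 1 of 22, Kcnn2. Leaving out an array of the same time left 1 array on a side, so those fits cannot support the calls. Over all settings and arrays left out, the difference lay between 1.64 and 3.31 at 6 h. At 24 h it lay between 2.07 and 3.86. The other Kcnh1 probe set stayed between 1.85 and 2.02, so the result rests on 1 probe set.

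Kcnip2 encodes KChIP2, a calcium-binding accessory subunit of Kv4 channels best known from the heart. It rose at 24 h. Its level there was 4.45 with both agents and 5.24 with BayK8644, against 3.22 with Exendin-4 and 3.39 in DMSO. On the 12 arrays of earlier times it lay between 3.23 and 3.43, whatever the treatment. The difference at 24 h was 1.54 ± 0.16 (adjusted p = 0.0012), at least 1.79-fold with log2 4 taken for the lower arrays. Kcnip2 passed the filter only through the 24 h arrays with BayK8644. A difference was thus built into its being tested, and the p-value is no independent support for it. The difference stayed positive with each array left out, but the low-value filter was set on all 16 arrays. Without either 24 h array that held BayK8644, Kcnip2 would not have passed that filter, so those fits cannot support the call. The effect at 24 h exceeded that at 0.5 h by 1.52 ± 0.23 (adjusted p = 0.0167), a test lost without any 1 array of 0.5 h (adjusted p up to 0.17) and over all probe sets (adjusted p = 0.0647). A further Kcnip2 probe set, at most 5.00 on any array, differed by 1.02 at 24 h in the same direction (adjusted p = 0.0586 over all probe sets).

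The promoters of these floor-level genes are shown because both genes switched from the floor in the presence of BayK8644, and calcium entry is known to act on genes through CRE, AP-1 and NFAT sites. Sequences are from RefSeq on GRCm38.p6 and run 5′ to 3′ over 250 bases before and 50 after the start of the gene. Capitals mark every match, on either strand, to the CRE half-site TGACG, the full CRE TGACGTCA, the AP-1 site TGANTCA and the NFAT core GGAAA, of which the half-site lies within the full CRE.
Kcnh1, chr1:192190527-192190826, plus strand: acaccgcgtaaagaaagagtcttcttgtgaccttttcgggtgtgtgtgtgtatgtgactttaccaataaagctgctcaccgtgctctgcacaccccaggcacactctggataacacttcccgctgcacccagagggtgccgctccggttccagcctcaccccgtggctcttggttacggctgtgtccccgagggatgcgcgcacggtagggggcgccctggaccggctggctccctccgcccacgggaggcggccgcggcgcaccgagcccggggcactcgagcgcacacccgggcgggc
Kcnip2, chr19:45816014-45816313, minus strand: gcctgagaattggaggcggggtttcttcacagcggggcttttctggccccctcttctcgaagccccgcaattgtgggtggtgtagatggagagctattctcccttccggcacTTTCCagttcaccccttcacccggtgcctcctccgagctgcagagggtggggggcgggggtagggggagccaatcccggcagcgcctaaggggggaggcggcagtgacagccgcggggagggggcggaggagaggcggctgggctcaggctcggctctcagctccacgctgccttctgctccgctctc
The Kcnh1 window held none of the 4 motifs. The Kcnip2 window held 1 NFAT core, on the opposite strand with its first base at -138 from the start. Among the 32851 promoter windows searched, 61.3% held an NFAT core, 20.8% a CRE half-site, 7.81% an AP-1 site and 1.79% a full CRE. Kcnip1 has 3 windows in that table, with 3, 0 and 1 NFAT cores and no match to the other motifs. The 18 expressed members in the table had 29 windows, of which 5 held a CRE half-site, 0 a full CRE, 2 an AP-1 site and 17 an NFAT core. By gene, 5, 0, 2 and 11 of the 18 had the motif in at least 1 window, which is not comparable with shares per window. A match is a description of letters and no match says nothing about the factors.

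Kcnn2 encodes the small-conductance SK2 channel, which opens when cytosolic calcium rises. At 0.5 h it stood at 7.66 with both agents and 7.56 with BayK8644, against 7.75 with Exendin-4 and 7.75 in DMSO. At 2 h it had 8.06 with both agents and 8.24 with BayK8644, against 7.52 and 7.48 with Exendin-4 and in DMSO. At 6 h the levels were 8.11 and 8.40, against 7.29 and 7.80 with Exendin-4 and in DMSO. By 24 h they were 8.73 with both agents and 8.87 with BayK8644, against 7.80 with Exendin-4 and 7.86 in DMSO. Both arrays with BayK8644 lay above both without it at 2, 6 and 24 h and below both at 0.5 h.

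Kcnn2 rose by 0.65 ± 0.12 at 2 h (1.57-fold, adjusted p = 0.0266), by 0.71 ± 0.12 at 6 h (1.63-fold, adjusted p = 0.0154) and by 0.97 ± 0.12 at 24 h (1.96-fold, adjusted p = 0.00271). Leaving out an array of 24 h left 1 array on a side, so those fits cannot support the 24 h call. The 24 h difference lay between 0.92 and 1.02 over all settings and arrays left out. The 2 h call was lost when any 1 array from 0.5 or 2 h was dropped (adjusted p up to 0.324) or over all probe sets (adjusted p = 0.0666), and the 6 h call without any 1 array of 6 h (adjusted p up to 0.223). Its effect at 24 h exceeded that at 0.5 h by 1.11 ± 0.16 (adjusted p = 0.0157), which was lost without any 1 array of 0.5 h, or without the Exendin-4 or the both-agents array of 24 h (adjusted p up to 0.18), and over all probe sets (adjusted p = 0.0554). Kcnn1, which encodes the related SK1 channel, differed by 0.54 ± 0.18 at 6 h and 0.49 ± 0.18 at 24 h and did not pass (adjusted p = 0.178 and 0.146). Its highest values were 7.82 and 7.56, with both agents at 24 and 6 h.

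Kcnip1, the gene of KChIP1, was expressed throughout. At 6 h its level was 11.36 with both agents and 11.32 with BayK8644, against 10.58 with Exendin-4 and 10.86 in DMSO. At 24 h it was 11.60 and 11.62, against 11.02 with Exendin-4 and 11.24 in DMSO. The groups did not overlap at either time, and the DMSO and Exendin-4 arrays of 24 h also lay above those of 6 h. The difference was 0.62 ± 0.09 at 6 h (1.54-fold, adjusted p = 0.00935) and 0.48 ± 0.09 at 24 h (1.40-fold, adjusted p = 0.0206). The 6 h call was lost without any 1 array of 6 h (adjusted p up to 0.194) and the 24 h call without the Exendin-4 or the both-agents array of 24 h (adjusted p up to 0.197), and also with array weights or with no intensity trend (adjusted p up to 0.125). At 0.5 and 2 h the differences were -0.04 and 0.18 (adjusted p = 1 and 0.5). A further probe set of Kcnip1 differed by 0.84 at 6 h and 0.53 at 24 h (limma over all probe sets, adjusted p = 0.0409 and 0.0932), so only 6 h passed. The other one above the filter differed by 0.40 and 0.14 and passed at neither time (adjusted p = 0.902 and 0.954).

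**Figure D2:**
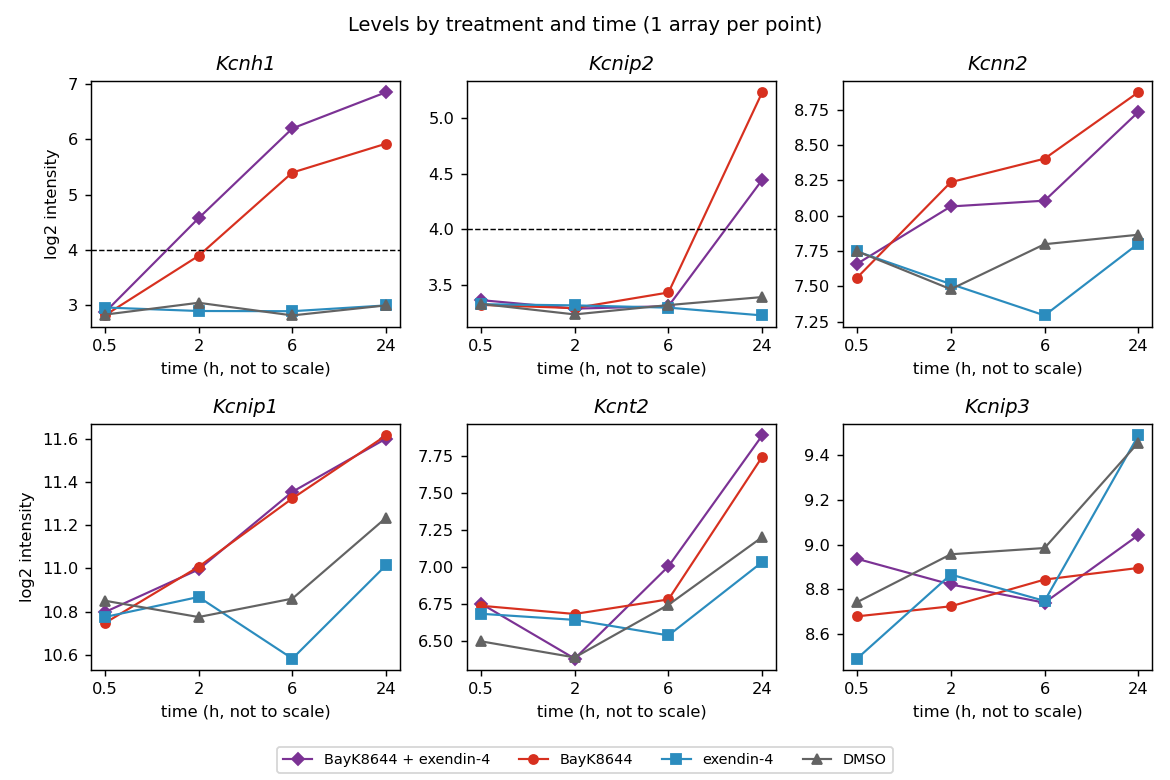
Log2 intensity (y axis, scaled per gene) against time (x axis, h, not to scale) for Kcnh1, Kcnip2, Kcnn2, Kcnip1, Kcnt2 and Kcnip3, 1 array per point; the dashed line marks log2 4. Kcnh1 separates by BayK8644 from 2 h on, Kcnip2 only at 24 h, and Kcnip3 is highest at 24 h on the Exendin-4 (9.49) and DMSO (9.46) arrays.

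The remaining KChIP genes had differences of the opposite sign that did not pass. Kcnip3, whose product is also known as the calcium-sensing repressor DREAM, stood at 9.04 with both agents and 8.90 with BayK8644 at 24 h, against 9.49 with Exendin-4 and 9.46 in DMSO. Its difference was -0.50 ± 0.13 (adjusted p = 0.0605). Kcnip4 had 8.95 and 8.94 at that time with both agents and BayK8644, against 9.23 and 9.40 with Exendin-4 and in DMSO, a difference of -0.37 ± 0.10 (adjusted p = 0.0693). At 6 h the Kcnip4 difference was -0.36 ± 0.10 (adjusted p = 0.123). All 3 Kcnip4 probe sets above the filter and both Kcnip3 probe sets had negative differences at 24 h.

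Kcnt2, which encodes the sodium-activated channel Slick, just missed the threshold with BayK8644 at 24 h (0.70 ± 0.17, adjusted p = 0.0524). It had 7.89 with both agents and 7.74 with BayK8644, against 7.03 with Exendin-4 and 7.20 in DMSO. Kv4 and Kv3 pore genes did not pass at any time. At 24 h Kcnd1 differed by -0.02, Kcnd2 by -0.09, Kcnc1 by 0.07 and Kcnc2 by -0.38. Kcnh2 differed by 0.09 and Kcnf1 by 0.12. A further Kcnf1 probe set differed by 0.35 (adjusted p = 0.0642 over all probe sets). Kcnma1 lay between 3.47 and 4.48 on all arrays, at the edge of the floor, so its response could not be read.

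The ATP-sensitive channel genes did not pass in any comparison of agents. At 24 h Abcc8 had 13.91 with both agents and 13.94 with BayK8644, against 14.09 with Exendin-4 and 13.81 in DMSO. The BayK8644 difference was -0.03 ± 0.08 (adjusted p = 0.867). Kcnj11 had 10.57 and 10.34 with both agents and BayK8644, against 10.34 and 10.22 with Exendin-4 and in DMSO, a difference of 0.18 ± 0.08 (adjusted p = 0.26). Kcnk16 had 10.54 and 10.35, against 10.40 and 10.53, a difference of -0.02 ± 0.10 (adjusted p = 0.934). Over all 16 arrays Abcc8 lay between 13.58 and 14.09, Kcnj11 between 10.19 and 10.57 and Kcnk16 between 10.04 and 10.54.

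**Figure D3:**
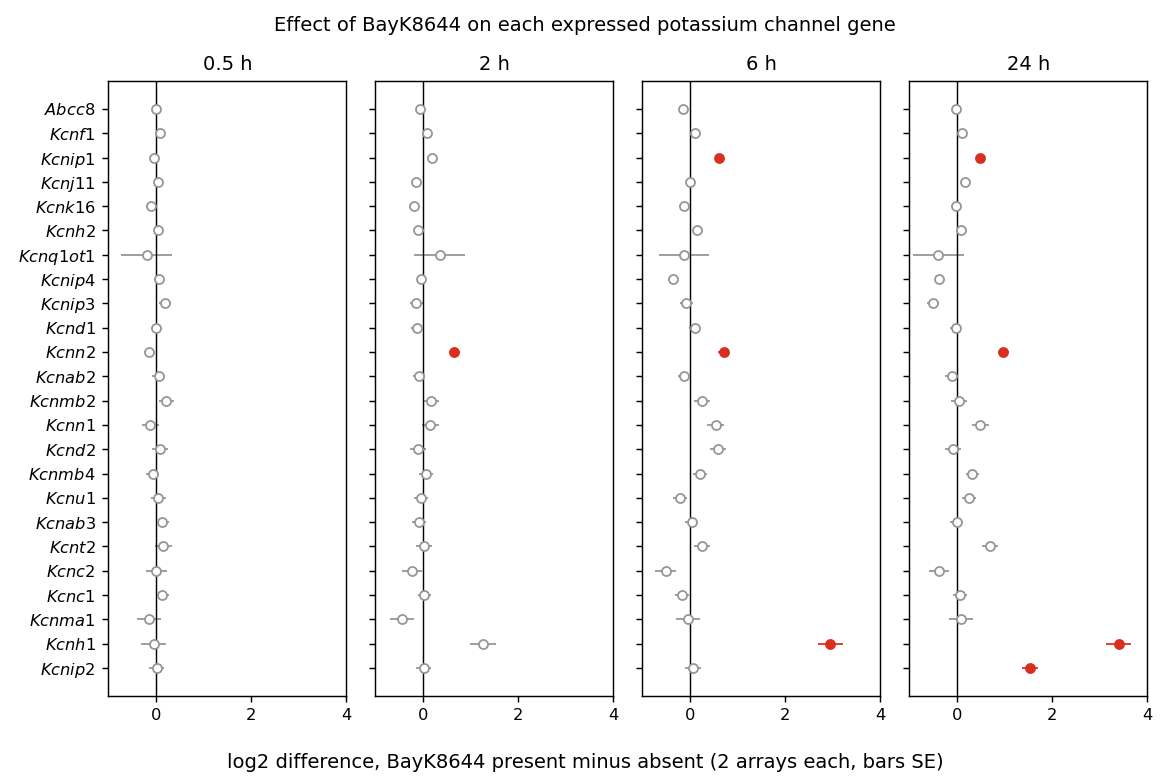
Log2 difference between the 2 arrays with BayK8644 and the 2 without it (x axis, bars are limma's SE) for the 24 expressed genes (rows) at 0.5, 2, 6 and 24 h; filled red points passed an adjusted p of 0.05. The filled points number 0, 1, 3 and 4 and all lie to the right of 0.

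Markers of other cells were read on the same arrays and were not tested between groups. Linear intensities were summed over each list, and the log2 of the sum is given. For the 6 alpha, delta and PP cell markers, of which Gcg, Irx2 and Sst were above the filter, it ran between 9.72 and 10.19 with BayK8644. Without it, the range was 9.28 to 9.82. These ranges overlapped, and Gcg (9.08 to 10.06 over all arrays) carried most of the sum. Gcg averaged 9.84 with both agents, 9.62 with BayK8644, 9.50 with Exendin-4 and 9.34 in DMSO, and Sst 6.06, 5.75, 5.12 and 5.12 in that order, while Irx2 had 4.38, 4.57, 4.58 and 4.59. Hhex, Ppy and Pyy stayed below log2 3. The 10 mesenchymal, endothelial and leukocyte markers summed to between 10.32 and 11.29 with BayK8644, against 10.12 and 10.32 without it, and Vim carried that sum, since Ptprc, Pecam1 and Col1a1 stayed below log2 3. Neuronal and glial markers summed to between 10.83 and 11.10 with BayK8644, against 10.91 and 11.16 without it, and the 4 acinar and duct markers to between 4.75 and 4.87, against 4.76 and 4.89, overlapping in both cases and, for acinar and duct genes, with every member below log2 4. The part of these markers in the channel results was not tested.

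Averaged over the 4 times, the combination of both agents raised 1 of 24 members and lowered 0, where 6.98% of all genes tested were called, 4.38% as higher and 2.59% as lower. Without Kcnh1 and Kcnip2 it was 0 of 22. Of those 22, 6 had an unadjusted p under 0.05 (limma), where 2957 of 10609 genes did. The member raised was Kcnh1, with a mean of 5.12 ± 1.79 with both agents against 2.92 ± 0.12 in DMSO (SD, n = 4 times each). The difference of 2.21 ± 0.54 (adjusted p = 0.0311) counted the change over time as error, and the groups overlapped through the 0.5 h array. Kcnh1 passed the filter only through arrays with BayK8644, so this difference too was built into its being tested. The call was lost without any 1 of the DMSO or both-agents arrays of 2, 6 or 24 h (adjusted p up to 0.132). It was also lost with no low-value filter, no intensity trend or no time block (adjusted p up to 0.273 over all settings). Without all arrays of 0.5 h 6 members passed, namely Kcnh1, Kcnip1, Kcnn1 and Kcnn2 (higher) and Kcnc2 and Kcnip4 (lower), where 19% of all genes were called under that setting. Kcnc2 averaged 6.28 ± 0.35 with both agents and 6.74 ± 0.19 in DMSO, a difference of -0.46 ± 0.15 (adjusted p = 0.074). The probe set standing for Kcnf1 differed by 0.07 (adjusted p = 0.398), while the further one differed by 0.31 and passed in the fit over all probe sets (adjusted p = 0.021).

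BayK8644 alone against DMSO over the 4 times called 0 of 24 members, where 0.839% of all genes were called, 0.481% as higher and 0.358% as lower. An unadjusted p under 0.05 (limma) was found for 8 of 24 members, or 7 of 22 without Kcnh1 and Kcnip2, and for 1579 of 10609 genes. The largest differences were those of Kcnh1 (1.59 ± 0.54, adjusted p = 0.175), Kcnq1ot1 (0.57 ± 0.21, adjusted p = 0.217) and Kcnn2 (0.55 ± 0.18, adjusted p = 0.167). With the agents as additive factors over all 16 arrays, Kcnh1, Kcnip1 and Kcnn2 passed, where 8.85% of all genes did. Without all arrays of 0.5 h, Kcnh1, Kcnn2 and Kcnq1ot1 did, where 5.57% of all genes did. Comparisons that share the DMSO arrays are not independent of each other.

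With Exendin-4 alone, averaged over time and set against DMSO, 0 members passed, nor did any other gene (0%). An unadjusted p under 0.05 (limma) was found for 698 of 10609 genes, 1 of them a member. Kcnq1ot1 was that member, at 0.77 ± 0.21 (adjusted p = 0.712). At single times Exendin-4 called 0 members at each of 0.5, 2, 6 and 24 h, where 0.00943%, 0.0189%, 0% and 0% of all genes were called. An unadjusted p under 0.05 (limma) was found for 1, 0, 3 and 3 members, and for 200, 588, 738 and 626 of 10609 genes. Without Kcnh1 and Kcnip2 it was 2 members at 24 h. Kcnd2, an A-type channel gene, had 6.83 with both agents and 5.91 with Exendin-4 at 6 h, against 7.15 with BayK8644 and 6.90 in DMSO. At 24 h it had 6.81 and 6.77, against 7.30 and 7.51. These differences of -0.65 ± 0.17 and -0.61 ± 0.17 did not pass (adjusted p = 0.688 and 0.782). The Kcnd2 levels with Exendin-4 lay below both levels without it at both times.

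Whether the agents' effects added up was tested as an interaction over the 4 times, and 0 of 24 members passed (0% of all genes). An unadjusted p under 0.05 (limma) was found for 1 member and for 710 of 10609 genes. Kcnh1 was higher with both agents than with BayK8644 alone by 0.68, 0.80 and 0.93 at 2, 6 and 24 h, 1 array each. Its interaction of 0.60 ± 0.76 did not pass (adjusted p = 0.862), nor did its Exendin-4 effect at 24 h (0.47 ± 0.27, adjusted p = 0.863). Kcnip2 differed by -0.79 between both agents and BayK8644 alone at 24 h, and its Exendin-4 effect there was -0.48 ± 0.16 (adjusted p = 0.782).

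Between 0.5 and 24 h some called members were higher under every treatment, by unequal amounts, while the rise of others lay mainly on arrays with an agent. The 4 arrays of 24 h were set against the 4 of 0.5 h with treatment in the fit, and 8 of 24 members rose while 0 fell. Of all genes tested 23.6% were called in this comparison, 10.6% as higher and 13% as lower, and the members' share of 33.3% is read against those figures. Higher calls made up 45% of all calls, or 50.8% after quantile normalization. Without Kcnh1 and Kcnip2 7 of 22 rose. The members' median difference was 0.15, and 0.13 without those genes, against 0.00 over all genes.

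Abcc8, the sulphonylurea receptor SUR1, rose by 0.28 ± 0.06 (1.21-fold, adjusted p = 0.00412). Its values at 24 h were 13.91 with both agents, 13.94 with BayK8644, 14.09 with Exendin-4 and 13.81 in DMSO, against 13.64, 13.68, 13.58 and 13.76 for the same treatments at 0.5 h. Every 24 h array exceeded every 0.5 h array. Its partner Kcnj11 differed by 0.10 ± 0.07 (adjusted p = 0.328) and did not pass. A further Abcc8 probe set differed by 0.26, while the further Kcnj11 probe set differed by -0.08.

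Kcnf1, the silent Kv subunit, rose by 0.24 ± 0.05 (1.19-fold, adjusted p = 0.00269), with 12.39 to 12.59 at 24 h against 12.19 to 12.36 at 0.5 h. Kcnt2 rose by 0.80 ± 0.14 (1.74-fold, adjusted p = 0.000975), with 7.03 to 7.89 at 24 h against 6.50 to 6.75 at 0.5 h. Neither group of arrays overlapped the other for these genes. Kcnip1 rose by 0.58 ± 0.11 (1.49-fold, adjusted p = 0.00224), and Kcnip3 by 0.51 ± 0.12 (1.42-fold, adjusted p = 0.00642). For Kcnip3 the groups overlapped, since its BayK8644 array of 24 h stood at 8.90 and its both-agents array of 0.5 h at 8.94. For the probe sets that stand for the genes, these 5 calls, Abcc8 included, held under the 6 other settings tried and whichever single array was dropped. The further Kcnip3 probe set differed by 0.20 and did not pass (limma over all probe sets, adjusted p = 0.715). Further probe sets above the filter passed in that fit for Kcnf1 (0.24, adjusted p = 0.00983) and Kcnip1 (0.60 and 1.59, adjusted p = 0.0122 and 0.00489).

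Kcnh1 (1.83 ± 0.54, adjusted p = 0.0252) and Kcnn2 (0.64 ± 0.18, adjusted p = 0.0207) were called too, and their rise lay on the arrays with BayK8644. In DMSO Kcnh1 differed little, with 2.99 at 24 h and 2.83 at 0.5 h, and Kcnn2 had 7.86 and 7.75. Both calls were lost without the BayK8644 or the both-agents array of either time (adjusted p up to 0.105 and 0.0814), and that of Kcnh1 also without the low-value filter (adjusted p = 0.0564). Kcnq1ot1 rose by 0.69 ± 0.21 (adjusted p = 0.0297), which was lost without the BayK8644 or the Exendin-4 array of either time (adjusted p up to 0.115) or without the filter (adjusted p = 0.065). Further Kcnq1ot1 probe sets above the filter differed by 0.55 and 0.59 and did not pass (limma over all probe sets, adjusted p = 0.0938 and 0.0659).

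**Figure D4:**
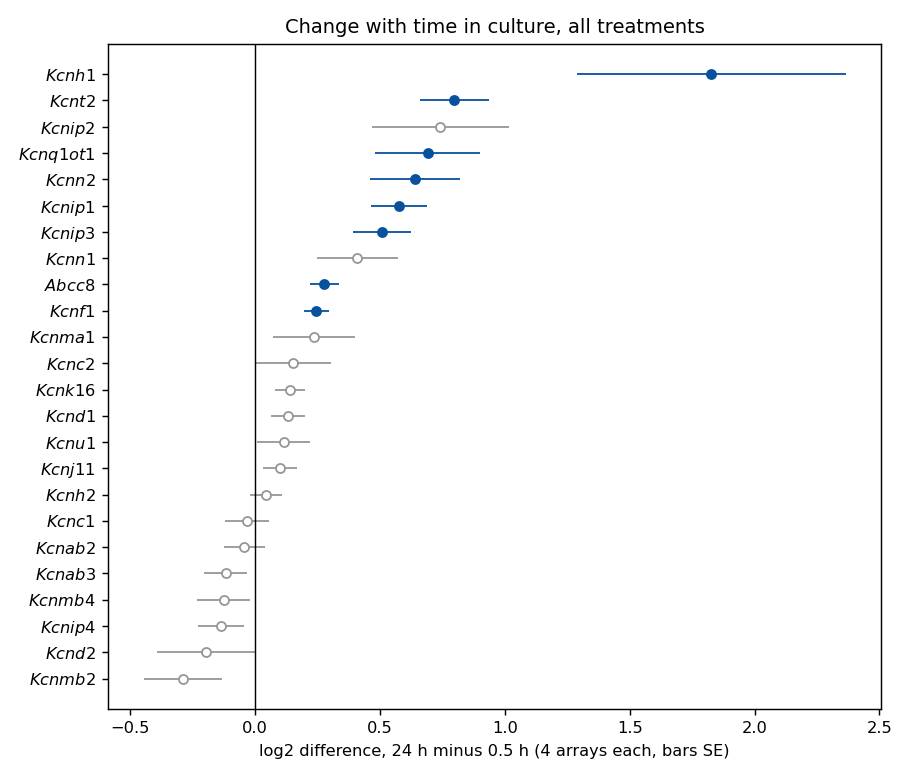
Log2 difference between the 4 arrays of 24 h and the 4 of 0.5 h (x axis, bars are limma's SE) for the 24 expressed genes, sorted by size; filled blue points passed an adjusted p of 0.05. The 8 filled points all lie to the right of 0, from Kcnf1 at 0.24 to Kcnh1 at 1.83.

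At 6 h against 0.5 h, Kcnq1ot1 rose by 0.75 ± 0.21 (adjusted p = 0.0427), while Kcnc2 and Kcnab2 fell by 0.64 and 0.29 (adjusted p = 0.0223 and 0.0425). Of all genes tested 8.41% were called, 2.97% as higher and 5.44% as lower. The higher ones made up 35.3% of the calls, or 45.4% after quantile normalization of the arrays. Kcnc2, the Kv3.2 gene, had 5.91 with both agents, 5.70 with BayK8644 and 6.01 with Exendin-4 at 6 h, and 6.61 in DMSO. At 0.5 h it lay between 6.62 and 6.79 in all treatments, and at 24 h between 6.52 and 7.07. The 3 arrays with an agent carried the fall at 6 h. Kcnab2, a Kv beta subunit, had 7.38 to 7.66 at 6 h against 7.71 to 8.06 at 0.5 h. The Kcnc2 call was lost without the BayK8644 array of 0.5 or 6 h, the Exendin-4 array of 6 h or the both-agents array of 0.5 h (adjusted p up to 0.0872). Kcnab2 was lost without 12 of the 16 arrays and Kcnq1ot1 without 10 of 16 (adjusted p up to 0.143 and 0.145), as was each with no low-value filter or over all probe sets, Kcnab2 after quantile normalization (adjusted p up to 0.108 over settings) and Kcnq1ot1 with no intensity trend (up to 0.0906). At 2 h against 0.5 h 3 members had an unadjusted p under 0.05 (limma), as did 2308 of 10609 genes. At the adjusted threshold 0 members passed, where 4.68% of all genes were called, 2.05% as higher and 2.64% as lower. Higher calls made up 43.7% of these, or 53.3% after quantile normalization.

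Other potassium carriers and channel partners were read beside the channels. Of 30 such genes on the array 19 were tested, and the shares of all genes called serve as their background too. With BayK8644 at 6 h, where 2.47% of all genes were called, 1 of the 19 rose. Slc24a3, a potassium-dependent sodium-calcium exchanger, rose by 0.74 ± 0.13 (adjusted p = 0.0191), with a mean of 9.51 with BayK8644 and 8.77 without it (2 arrays each). At 24 h, with 5.1% of all genes called, 0 rose and 2 fell, Slc24a2, another such exchanger, by 0.46 (adjusted p = 0.0454) and Atp4a, a proton-potassium pump subunit, by 0.39 (adjusted p = 0.031). The list's median differences were -0.09 at 6 h and 0.02 at 24 h, against 0.01 and 0.01 over all genes. Between 0.5 and 24 h 2 rose and 4 fell, which is 31.6% of the 19, where 23.6% of all genes were called (10.6% higher, 13% lower). The potassium-chloride cotransporter gene Slc12a7 rose by 0.92 ± 0.08 (adjusted p = 2.35e-06), with means of 10.17 at 24 h and 9.25 at 0.5 h, and Dpp6, a Kv4 partner, by 0.26. Tmem175, a lysosomal potassium channel gene, fell by 0.37, Atp4a by 0.43, Amigo1, a channel partner, by 0.26 and the sodium pump subunit gene Atp1b1 by 0.16.

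Of 27 depolarisation and calcium entry genes on the array 22 were tested. At 6 h BayK8644 changed 0 of them, and 4 had an unadjusted p under 0.05 (limma), as did 1585 of 10609 genes. It changed 1 at 24 h, when the sodium channel gene Scn1a rose by 0.79 ± 0.17 (adjusted p = 0.0337), with a mean of 6.09 with BayK8644 and 5.30 without it. Their median difference was -0.10 at 6 h and -0.02 at 24 h, against 0.01 and 0.01 over all genes. At 6 h 5 of the 22 differences were positive, where 5803 of 10609 genes were. Between 0.5 and 24 h 4 rose and 2 fell, which is 27.3% of the 22 and near the 23.6% of all genes called. Scn3b, Scn3a and Scn8a, which encode sodium channel subunits, rose by 0.69, 0.44 and 0.35, and the calcium channel subunit gene Cacna2d1 by 0.23. The T-type channel gene Cacna1g fell by 0.38 and the cation channel gene Trpm5 by 0.29.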

How the data were processed

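Affymetrix arrays, 1-colour with a biotin label, measured 45101 probe sets in 16 samples. The authors deposited linear intensity from GCRMA, per the submitters' processing notes. This method corrects background, quantile-normalizes and summarises probes, and its version was not given in the sources used here. Log2 was taken with no pseudocount. The platform annotation supplied gene symbols. Those with 1 symbol (34945, no controls) covered 18193 genes, and the highest-mean probe set stood for the gene. A gene was tested where log2 4 was reached on at least 2 arrays, which left 10609.

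Linear models came from limma 3.58.1 under R 4.3.3, with eBayes moderation on an intensity trend, with Benjamini-Hochberg adjustment over all genes tested and a threshold of 0.05. One model held time and treatment (9 residual degrees of freedom). Another let every agent act separately at every time (4 residual degrees of freedom, error pooled over times). Of its residual sum of squares 12.1, 25.5, 23 and 39.4% came from 0.5, 2, 6 and 24 h, so calls are not on 1 scale across times. Errors of differences are limma's SE. The code was checked on simulated data. The number of arrays limits the precision. Members, lists and tests were chosen with earlier results of these data known. Every member called in a comparison is named, with a fixed set of beta-cell channel genes. Reference names matched for all 86 members, and 65 had a promoter in the sequence table. Alternatives were no low-value filter, no intensity trend, array weights, quantile normalization, a value of 16 added before log2, every probe set tested, no time block, additive agents, and leaving out each array or all arrays of a time.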

Additional observations from a re-analysis of the deposited data

Results flagged for a closer look

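Among 96 groups of 4 arrays (24 genes, 4 treatments, the 4 times of each), 10 held an array far from the other 3, where chance alone gives about 4.8. Kcnip2 stood at 5.24 on the BayK8644 array of 24 h and at 4.45 on the both-agents array of 24 h, with the other times of those treatments between 3.28 and 3.43. Kcnt2 stood at 7.74 on the BayK8644 array of 24 h, with the others between 6.68 and 6.78. Kcnd1 (8.32) and Kcnma1 (4.48) were high on the both-agents array of 24 h. Kcnc2 (5.70) and Kcnc1 (5.17) were low on the BayK8644 array of 6 h. Kcnma1 was low on the BayK8644 array of 2 h (3.47), Kcnab3 low on the Exendin-4 array of 24 h (6.68) and Kcnj11 high on the DMSO array of 2 h (10.43). These groups span 4 times, so a response that depends on time stands out in the same way as a single odd array, and the groups cannot tell them apart.

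The effect of BayK8644 differed between 24 h and 0.5 h for 3 genes by the test of that difference, Kcnh1 (3.45 ± 0.38), Kcnip2 (1.52 ± 0.23) and Kcnn2 (1.11 ± 0.16), with limma's adjusted p of 0.005, 0.0167 and 0.0157, where 0.98% of all genes were called. Kcnh1 and Kcnip2 passed the filter only through BayK8644 arrays, and without them 1 of 22 members was called. All 3 calls were lost without any 1 array of 0.5 h.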

How the results depend on the processing

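Of 511 recomputed values for the 23 called results of single genes, 416 kept their call, 95 lost it and 0 changed direction. Some of these fits left 1 array on a side at a single time, and calls kept in them are not support. Counts of members called moved as follows, with the share of all genes called in brackets. They include Kcnh1 and Kcnip2 where called and were not counted again without them. The cause was not tested unless the setting drops arrays or genes. BayK8644 against DMSO over 4 times called 0 members (0.839%), 3 with additive factors (8.85%) and 3 without all arrays of 0.5 h (5.57%). With each array left out it called 0 to 1, with 1 without the BayK8644 array of 0.5 h (2.37%). Both agents against DMSO called 1 (6.98%), but 4 with array weights (22.2%) and 6 without all arrays of 0.5 h (19%). That comparison called 0 without the filter (1.5%), the trend (3.95%), the time block (0.245%) or all arrays of 2, 6 or 24 h (0.189%, 0.236% and 0.99%). With each array left out it called 0 to 4. It called 3 without the DMSO (11%) and 4 without the both-agents array of 0.5 h (20.9%). Without either treatment's array of 2, 6 or 24 h it called 0 (0.707 to 3.12%). BayK8644 at 2 h called 1 (1.63%), and 0 over all probe sets. It called 2 with no filter (0.715%, Kcnk10 added, below log2 4 on all arrays) or with array weights (2.26%, Kcnh1 added). Without any 1 array of 0.5 h it called 0 (0.82%), and without any 1 of 24 h it called 2 (2.25 to 2.28%). At 6 h it called 3 (2.47%), and fewer only where an array of 6 h was left out. At 24 h it called 4 (5.1%). Of these, Kcnip1 was lost with array weights (1.11%) or with no trend (3.02%), while Kcnh1, Kcnip2 and Kcnn2 stayed called. The BayK8644 effect at 24 h minus 0.5 h called 3 (0.98%), and 1 over all probe sets. Leaving out an array of 0.5 or 24 h left 1 array on a side, so the counts of those fits are not read. Time contrasts gave 0 members at 2 h (4.68%), and 1, Kcnab2, with no trend (4.35%) or with array weights (8.85%). With each array left out they gave 0 to 1, with 1 without the DMSO (4.88%) or the Exendin-4 array of 24 h (6.75%). They gave 3 at 6 h (8.41%), and 1 with no filter (2.78%) or over all probe sets. With each array left out they gave 0 to 6 (1.92 to 10.7%). Of the 16 arrays 11 moved the count, and it was 6 without the DMSO array of 0.5 h (10.7%). At 24 h the 8 (23.6%) became 5 to 10, with 5 without the BayK8644 array of 0.5 h (17%) or of 24 h (16.5%). The Exendin-4 and interaction counts stayed at 0 under all settings tried. Quantile normalization moved no median over all genes by more than 0.1.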

Other observations

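Kcnq1ot1, the noncoding RNA of the Kcnq1 locus, varied more between arrays than most expressed members. At 2, 6 and 24 h it had 9.56, 9.71 and 9.38 with both agents, 10.41, 10.23 and 10.18 with BayK8644 and 10.16, 10.37 and 10.92 with Exendin-4, and 9.10, 9.83 and 9.41 in DMSO. Each agent alone thus lay above the combination and the vehicle at all 3 times, while at 0.5 h the 4 arrays lay between 9.18 and 9.39. The interaction was -1.32 ± 0.30 on the log2 scale with an unadjusted p of 0.000611 and did not pass over all genes (limma, adjusted p = 0.614). All 3 probe sets of Kcnq1ot1 above the filter on every array gave similar values, of -1.28, -1.33 and -1.32 (adjusted p = 0.331 each over all probe sets).

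Several genes below the filter had single raised values. Kcnk10, a two-pore channel gene, had 3.69 on the BayK8644 array of 2 h and 3.64 on that of 24 h, with 2.80 to 3.40 on the other 14 arrays. Kcnj3, a G-protein-gated inward rectifier gene, had 3.80 on the Exendin-4 array of 6 h and 3.33 and 3.35 on the DMSO arrays of 2 and 6 h, with 2.91 to 3.04 elsewhere. Kcnt1 had 2.81 on the DMSO array of 24 h and at most 2.33 elsewhere.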
